A study of Homo sapiens with 6 samples.

Results

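The microRNAs miR-191-5p, miR-425-5p, miR-423-3p, miR-423-5p, miR-484, miR-361-5p, miR-186-5p and miR-320a, all in wide use as internal references, were followed across 6 microarrays of Huh7 cells to ask whether they were steady between arrays and between treated and untreated cells. The 8 were picked by their miRBase accession and not by a rule on their values, although earlier results of these data were known. Each matched 1 of the 1212 probes of the table, so 8 of 1212 probes are described. Huh7 is a cell line grown from a human hepatocellular carcinoma. The 3 control samples received no metformin, and the 3 metformin samples received 10 mM of this biguanide diabetes drug; the treatment lasted 72 h. All 6 samples are of that 1 line, kept in serum-supplemented medium. Nothing in the labels gives each sample a culture of its own, and the p-values therefore cover the scatter among these 6 samples, possibly technical in part.

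A reference microRNA is one whose level is taken to stay constant, so that the signal of every other microRNA in a sample can be divided by it and differences in input RNA and labelling cancel. Such a role asks for a microRNA made in nearly all cell types and present well above background, and it asks that the treatment under study leaves it alone. Mature microRNAs are usually cut from hairpin precursors by Drosha in the nucleus and by Dicer in the cytoplasm, and they repress messenger RNAs that pair with their seed, bases 2 to 8. miR-320a and miR-484 are known as exceptions whose precursors are made without Drosha.

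The 8 microRNAs come from 7 hairpin genes. The sequences below are shown because they set the seeds that tell these references apart, and because miR-423 gives a reference from each arm of 1 hairpin. They are RefSeq's for GRCh38.p14, in RNA letters and 5′ to 3′, and the entries of 5 members are printed. Capitals mark the seed in the mature microRNAs and both mature arms in the hairpin.
miR-191-5p: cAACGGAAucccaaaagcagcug
miR-423-3p: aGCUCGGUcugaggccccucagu
miR-423-5p: uGAGGGGCagagagcgagacuuu
miR-484: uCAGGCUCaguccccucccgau
miR-361-5p: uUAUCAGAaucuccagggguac
MIR423 hairpin: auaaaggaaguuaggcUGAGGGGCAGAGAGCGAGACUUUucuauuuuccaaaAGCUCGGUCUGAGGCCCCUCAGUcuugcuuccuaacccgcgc

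The 5 mature sequences have 5 different seeds, so no pair among them would be grouped by seed. Their G and C content ran from 45.5% in miR-361-5p to 65.2% in miR-423-3p, and miR-484 had 63.6%. MIR423 lies on the plus strand at chr17:30117079-30117172, inside the span of NSRP1, and 13 bases separate its mature arms. MIR191 (chr3:49020618-49020709, minus strand) lies within the spans of DALRD3 and NDUFAF3, and MIR425 (chr3:49020148-49020234, minus strand) lies within DALRD3. Only 383 bases separate these 2 hairpins. MIR361 (chrX:85903636-85903707, minus strand) lies within CHM, and MIR186 (chr1:71067631-71067716, minus strand) within ZRANB2. MIR484 (chr16:15643294-15643372, plus strand) is not held by the span of another gene in that annotation. Exons and introns were not resolved.

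Between 1099 and 1209 probes per array were measured, and the median intensity of an array ran from 22.8 to 24.1. All 8 reference probes had a value on all 6 arrays and so were among the 1038 probes tested. Log2 intensities of pairs of arrays correlated with r between 0.87 and 0.93 across these probes, which are not independent replicates. The values are intensities on a linear scale, processed by the authors before deposit, and how they were scaled is not stated in the labels. Probes differ in signal for reasons other than abundance, so the brightness of a probe does not rank the microRNAs.

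Among the 8 references, 7 were among the 260 brightest probes, those with a geometric mean intensity of 32.5 or higher over the arrays. miR-320a ranked 45 and miR-191-5p 50 of 1038 in probe brightness. miR-425-5p ranked 99, miR-423-3p 117, miR-186-5p 131, miR-423-5p 138 and miR-484 167. miR-361-5p ranked 847, with a geometric mean of 16.8, below the median intensity of every array. It had the widest relative spread of the 8, so its values are the least informative here.

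No reference microRNA passed the test for a change with metformin. By limma over all 1038 probes, 0 of the 8 had an adjusted p under 0.05, against 0% of all probes, and 0 had an unadjusted p under 0.05, against 2.7% (28 probes). Of the references, 4 had a higher mean with metformin and 4 a lower one, and the median log2 difference was 0.13, beside 0.03 over all probes tested and 0.10 over the 260 brightest, of which 186 (71.5%) were higher. The 7 references among those 260 had a median of -0.0075. The median size of the difference regardless of sign was 0.28 for the 8, 0.21 over all tested probes and 0.14 over the 260 brightest. For 6 of the 8, the 95% interval of the difference (not adjusted for the number of probes) lay wholly inside a 2-fold change up or down, against 54.9% of all probes and 88.1% of the 260 brightest. It lay inside a 1.5-fold change for only 1 of the 8, miR-425-5p, against 5.3% of all probes and 12.7% of the 260 brightest. This held on the deposited scale. Relative to the mean of the other 7 references, the log2 interval of miR-425-5p was -0.62 to 0.40, which passes a 1.5-fold decrease.

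miR-425-5p (MIMAT0003393), which is encoded beside miR-191, was the steadiest of the 8 as deposited. Its intensities were 103.0, 98.1 and 114.2 in control and 107.7, 98.4 and 107.2 with metformin. The values of the groups were interleaved, and the highest was 1.16 times the lowest. The means were 105.1 ± 8.25 in control and 104.4 ± 5.23 with metformin (SD, n = 3). Metformin minus control came to -0.0075 on the log2 scale (SE 0.21, 95% interval -0.50 to 0.48; limma adjusted p = 0.996). Its difference was -0.18 after quantile normalization. The interval as deposited corresponds to a level with metformin between 0.709 and 1.40 times that of control.

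miR-191-5p (MIMAT0000440), from the neighbouring hairpin, varied more. Its intensities were 253.1, 284.2 and 207.1 in control and 250.0, 397.8 and 343.5 with metformin. Metformin replicates 2 and 3 lay above every control array, whereas metformin replicate 1 lay below control replicates 1 and 2. The means were 248 ± 38.8 and 330.4 ± 74.8 (SD, n = 3). Metformin minus control came to 0.40 on the log2 scale (SE 0.27, 95% interval -0.22 to 1.02; limma adjusted p = 0.991), the largest positive difference among the 8 as deposited. It was 0.25 without metformin replicate 2 and 0.19 after quantile normalization, and in both of these miR-361-5p had the larger difference (0.56 and 0.41). That interval still holds a 2-fold increase.

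The references from the MIR423 hairpin differed in how far their arrays scattered. miR-423-3p (MIMAT0001340) measured 73.0, 78.0 and 80.8 in control and 97.6, 90.2 and 91.4 with metformin. All 3 metformin values lay above all 3 control values, with little scatter inside either group. The means were 77.3 ± 3.95 and 93.1 ± 3.97 (SD, n = 3), and the log2 difference was 0.27 (SE 0.21, 95% interval -0.21 to 0.75; limma adjusted p = 0.991). miR-423-5p (MIMAT0004748) measured 76.7, 49.3 and 70.0 in control and 49.9, 78.1 and 55.2 with metformin. Its highest and its lowest value each came from replicate 2, the highest with metformin and the lowest in control. Control replicates 1 and 3 lay above metformin replicates 1 and 3, so the groups overlapped. The log2 difference was -0.10 (SE 0.28, 95% interval -0.76 to 0.56; limma adjusted p = 0.991), and its sign turned without control replicate 1 (0.029) or without metformin replicate 1 (0.032). Dropping replicate 2 of either group gave -0.29, dropping replicate 3 gave -0.037 (control) or -0.041 (metformin), and quantile normalization gave -0.23.

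miR-484 (MIMAT0002174), known in heart muscle cells as a repressor of the mitochondrial fission protein FIS1, had the largest negative difference as deposited. It measured 57.3, 48.6 and 56.1 in control and 40.7, 40.1 and 45.3 with metformin. Every metformin array lay below every control array. The means were 54.0 ± 4.71 and 42.0 ± 2.84 (SD, n = 3), a level with metformin 0.779 times that of control. On the log2 scale this is a difference of -0.36 (SE 0.21, 95% interval -0.86 to 0.14; limma adjusted p = 0.991).

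miR-186-5p (MIMAT0000456) measured 73.8, 70.4 and 70.5 in control and 69.0, 60.2 and 65.2 with metformin. The groups did not overlap, but control replicate 2 (70.4) and metformin replicate 1 (69.0) lay close together. The means were 71.6 ± 1.93 and 64.8 ± 4.41 (SD, n = 3). The log2 difference was -0.15 (SE 0.21, 95% interval -0.63 to 0.34; limma adjusted p = 0.991), and -0.09 without metformin replicate 2. After miR-425-5p it had the smallest spread over the 6 arrays among the 8.

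miR-320a (MIMAT0000510) measured 328.8, 246.6 and 313.0 in control and 360.0, 422.2 and 311.4 with metformin. Metformin replicate 3 lay below control replicates 1 and 3, so the groups overlapped. The means were 296 ± 43.6 and 365 ± 55.5 (SD, n = 3), and the log2 difference was 0.30 (SE 0.24, 95% interval -0.26 to 0.86; limma adjusted p = 0.991). Quantile normalization gave 0.07, and leaving out replicate 2 gave 0.17 (control) or 0.19 (metformin). The dim miR-361-5p (MIMAT0000703), known for pairing with the message of the vessel growth factor VEGFA, measured 20.9, 13.9 and 11.3 in control and 22.6, 14.4 and 21.2 with metformin. Its highest value was 2 times its lowest, and control replicate 1 was nearly as high as the upper metformin arrays. The log2 difference was 0.36 (SE 0.31, 95% interval -0.37 to 1.08; limma adjusted p = 0.991), an interval that holds a 2-fold increase. Leaving out control replicate 1 gave 0.60, and leaving out control replicate 3 gave 0.16. Dropping metformin replicate 2 gave 0.56, and dropping metformin replicate 1 gave 0.23.

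**Figure D1:**
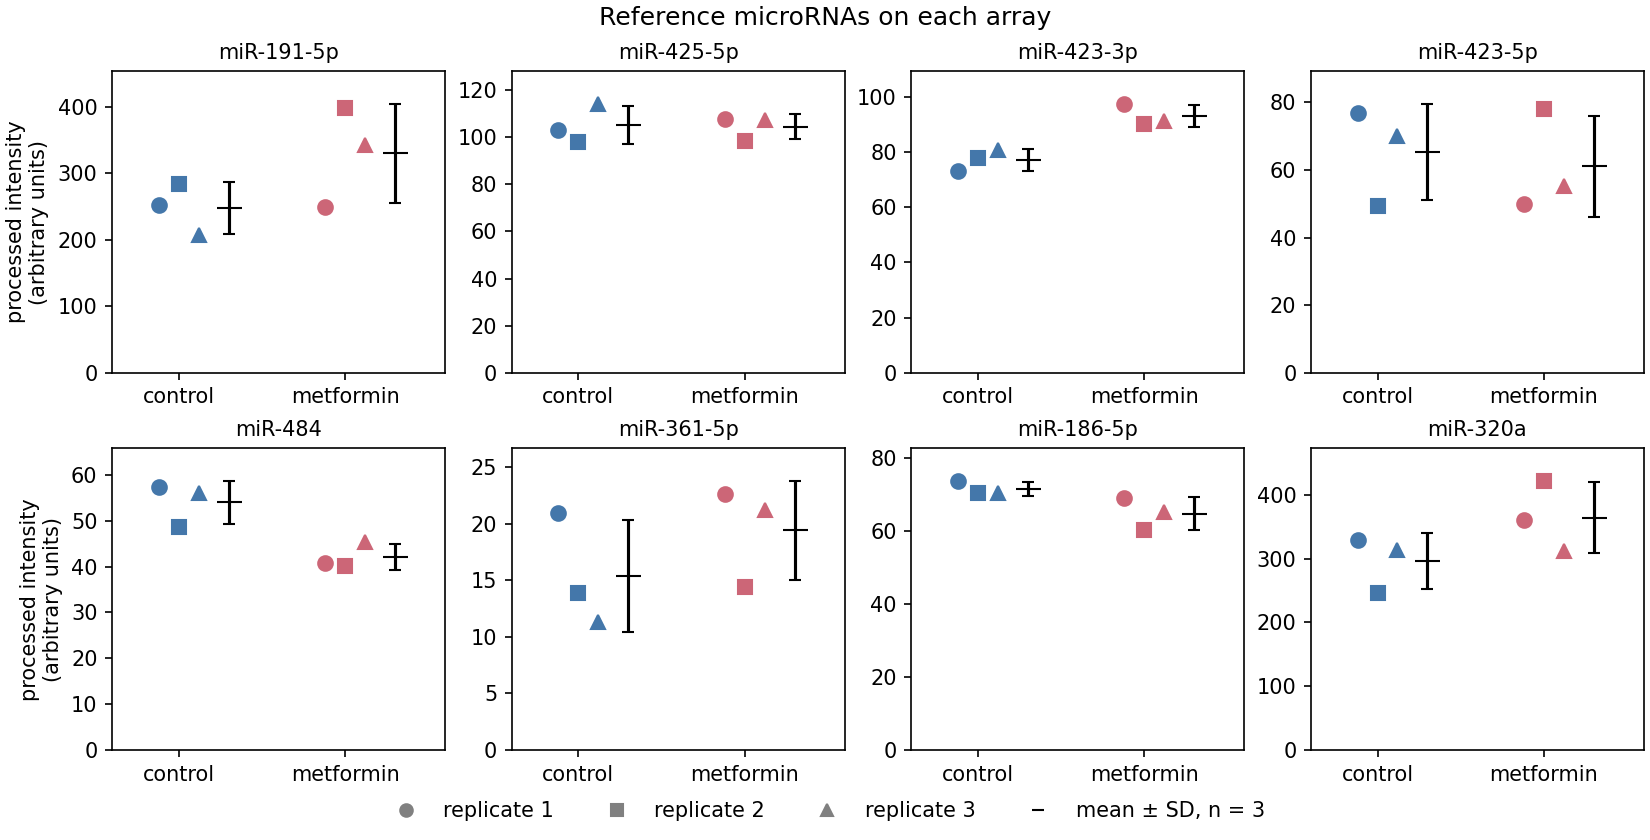
Processed intensity of the 8 reference microRNAs on each array, from 0 upward on a scale of its own per panel, with control in blue, metformin in red, marker shapes for the replicate number and bars for mean ± SD (n = 3). The groups are separate for miR-423-3p, miR-484 and miR-186-5p and overlap for the other 5.

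The values of the groups did not overlap for 3 of the 8 references, miR-423-3p upward and miR-484 and miR-186-5p downward. Over all probes tested this was so for 7.61% (4.43% upward, 3.18% downward), and for 6.15% of the 260 brightest. With 3 arrays against 3, the smallest two-sided exact permutation p is 0.1. Any probe whose groups do not overlap has this p, so for these 3 references it only restates the lack of overlap. The count depends on the scaling, since it was 2 of 8 after centring each array on its median (7.61% of all probes) or its 75th percentile (8.67%), where miR-186-5p overlapped. After quantile normalization it was 1 of 8 (miR-484), against 8.09% of all probes. Their spread within a group was small, at 0.07 (miR-423-3p), 0.11 (miR-484) and 0.08 (miR-186-5p) on the log2 scale against a median of 0.38 over all probes and 0.24 over the 260 brightest, and limma draws such small spreads towards the common one. With each probe's own spread in the same linear model, a setting chosen after seeing the data, the unadjusted p was 0.0084 for miR-423-3p, 0.018 for miR-484 and 0.077 for miR-186-5p. These 3 were singled out because their groups did not overlap, which favours a small spread within a group. In the same linear model, the unadjusted p of the other references ran from 0.17 to 0.93. Of all probes, 3.37% had an unadjusted p under 0.05 in that fit (3.46% of the 260 brightest), and the adjusted p of these 3 references was 0.993.

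**Figure D2:**
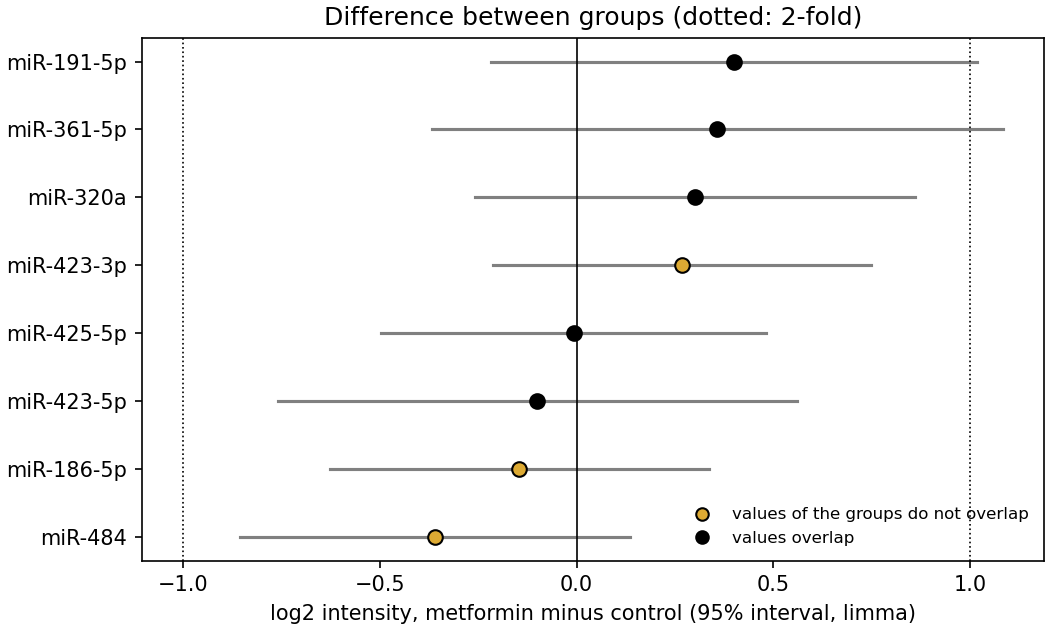
Log2 difference of each reference microRNA, metformin minus control, with its 95% interval from limma, sorted by size. All 8 intervals include 0, and those of miR-191-5p and miR-361-5p pass the dotted line of a 2-fold increase.

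Steadiness over all 6 arrays, regardless of treatment, differed widely among the 8. The SD of log2 intensity was 0.08 for miR-425-5p, 0.10 for miR-186-5p and 0.16 for miR-423-3p. It was 0.22 for miR-484, 0.26 for miR-320a, 0.31 for miR-423-5p, 0.34 for miR-191-5p and 0.41 for miR-361-5p. The median of the 8 was 0.24, beside 0.37 over all tested probes and 0.23 over the 260 brightest, so the typical reference had about the spread of other bright probes. Among the 260 brightest, miR-425-5p ranked 4 from the steadiest and miR-186-5p 13, whereas 71.5% of them were steadier than miR-423-5p and 79.6% were steadier than miR-191-5p. Of all tested probes, 55.5% were steadier than miR-361-5p. These places depended on the scaling. After quantile normalization miR-425-5p ranked 92 of 260 (SD 0.18) and miR-186-5p 116 (SD 0.20), while miR-320a moved from rank 148 to rank 30 (SD 0.11). miR-191-5p was in the less steady part under both, at rank 208 and rank 228. As deposited but without metformin replicate 2, miR-186-5p had a smaller SD than miR-425-5p, 0.065 against 0.081.

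**Figure D3:**
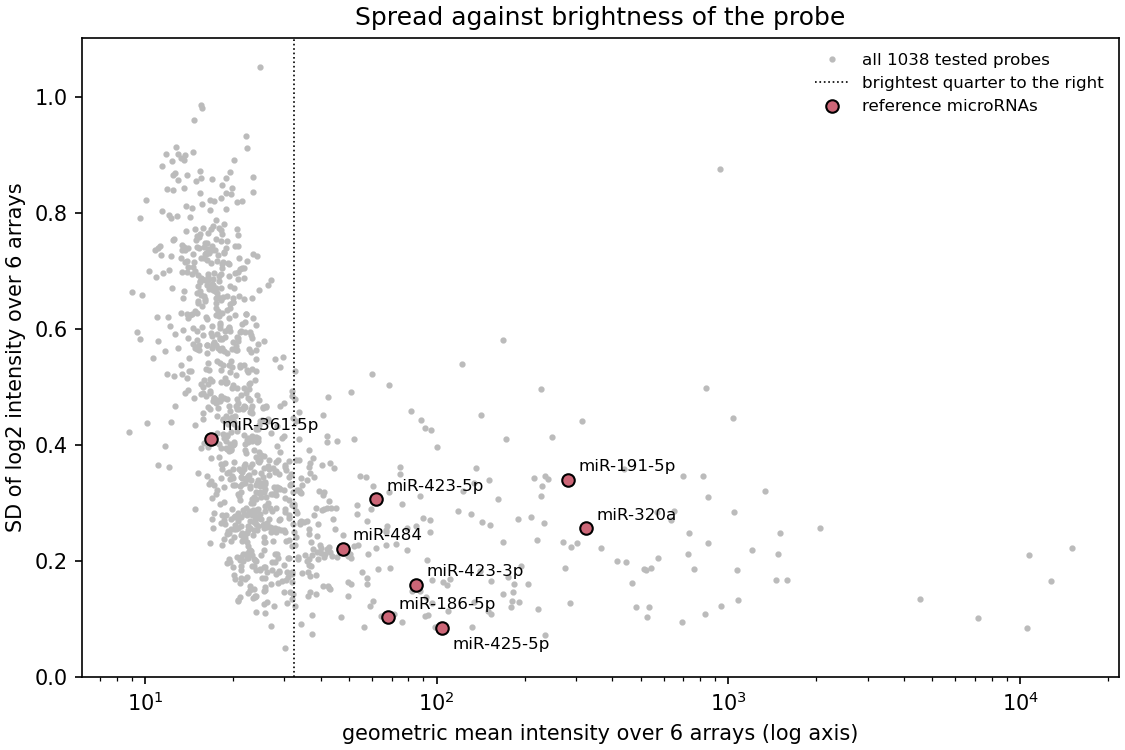
SD of log2 intensity over the 6 arrays against the geometric mean intensity (log axis) for all 1038 tested probes in grey and the 8 reference microRNAs in red, with a dotted line at the lower edge of the 260 brightest. miR-425-5p and miR-186-5p lie at the lower edge of the cloud, miR-191-5p lies among the more variable bright probes, and miR-361-5p lies left of the line.

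No array was high or low for all references together. Control replicate 1 and metformin replicate 1 each had 5 of the 8 above their own mean over the arrays, control replicate 2 had 3, and the other 3 arrays had 4 each. Metformin replicate 2, the array with fewest measured probes (1099), held the highest value of 3 references and the lowest of 2. Control replicate 2 held the lowest value of 3. Averaged over the 8, log2 intensity stood at 6.37 ± 0.11 in the control arrays and 6.46 ± 0.03 in the metformin arrays (SD, n = 3). The difference of 0.09 was smaller than the SD between control arrays but larger than the SD between metformin arrays. This difference was -0.03 after quantile normalization, 0.04 without control replicate 2 and 0.15 without control replicate 1.

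A ratio between references removes a log2 shift that all probes of an array share equally, though not one that varies with intensity. Over the 28 pairs, the SD of the log2 ratio across the 6 arrays ran from 0.11 to 0.58 with a median of 0.36. The steadiest ratio was that of miR-425-5p to miR-186-5p, and the least steady that of miR-423-5p to miR-361-5p. Averaged over its 7 partners, this SD was 0.27 for miR-425-5p, 0.29 for miR-186-5p, 0.30 for miR-423-3p and 0.33 for miR-320a. It was 0.36 for miR-484, 0.38 for miR-423-5p, 0.42 for miR-191-5p and 0.46 for miR-361-5p. With all 6 arrays, miR-425-5p was thus the steadiest and miR-361-5p the least steady by ratio too, although this measure shares its values with the SD above. Without control replicate 1, miR-423-3p had the lower mean ratio SD, 0.271 against 0.273 for miR-425-5p.

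References encoded together had ratios of middling steadiness. miR-191-5p and miR-425-5p, whose hairpins are neighbours, had a ratio SD of 0.40, which ranked 18 of the 28 from the steadiest. Relative to its own mean over the arrays, the log2 ratio of miR-191-5p to miR-425-5p was -0.14, 0.10 and -0.57 in control and -0.22, 0.58 and 0.25 with metformin. The arms of miR-423 had a ratio SD of 0.39, rank 17. Their log2 ratio, 3p to 5p, was -0.52, 0.21 and -0.24 in control and 0.52, -0.24 and 0.28 with metformin, again relative to its mean. Control and metformin values overlapped for both ratios.

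**Figure D4:**
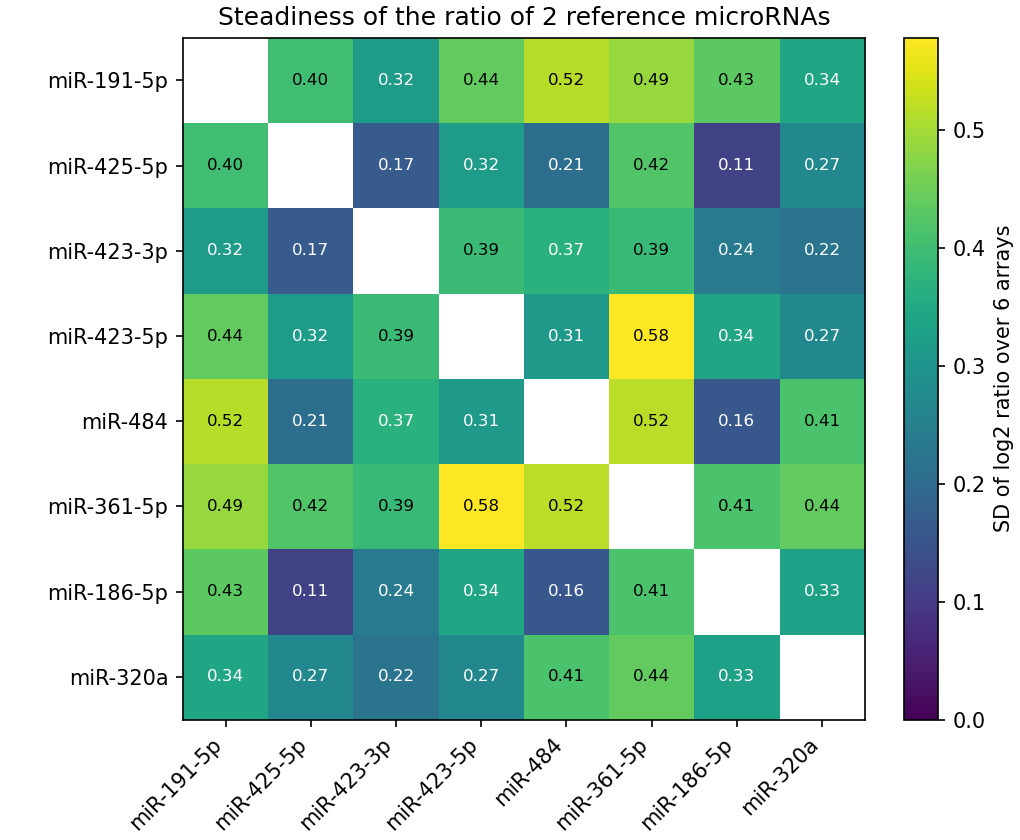
SD over the 6 arrays of the log2 ratio of each pair of reference microRNAs, with colour and number giving the same value. The darkest cells join miR-425-5p with miR-186-5p and miR-423-3p, and miR-186-5p with miR-484, and the palest cells lie in the rows of miR-361-5p and miR-191-5p.

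Scaling each array on these references shifts all other probes by the references' own differences, which makes the choice of reference visible. As deposited, the median log2 difference over the 1038 probes was 0.03 and 549 (52.9%) were higher with metformin. Scaled on the mean of all 8, the median was -0.06 and 429 (41.3%) were higher. Scaled on miR-484 alone, the median was 0.39 and 900 (86.7%) were higher. Scaled on miR-191-5p alone, the median was -0.37 and 123 (11.8%) were higher. These choices set the typical probe 1.69-fold apart, a gap that equals the change of the miR-191-5p to miR-484 ratio between the groups. The other single references gave medians of -0.33 (miR-361-5p), -0.27 (miR-320a), -0.24 (miR-423-3p), 0.03 (miR-425-5p), 0.13 (miR-423-5p) and 0.17 (miR-186-5p).

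No probe passed the threshold by limma under any of the 8 single references or under their mean, although the number at an unadjusted p under 0.05 moved from 28 as deposited to 15 with miR-423-5p and 161 with miR-484. Of these 161 probes, 159 were higher with metformin. With the mean of the 8 there were 31. When miR-484 was left out of the mean, 1 probe was called, and likewise when miR-186-5p was left out. In both cases it was the dim probe MIMAT0015037, with 20.0 ± 2.65 in control and 6.60 ± 0.20 with metformin (SD, n = 3). Its limma adjusted p was 0.107 as deposited, 0.044 without miR-484 in the mean and 0.049 without miR-186-5p, and between 0.054 and 0.067 when 1 of the other references was left out.

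Set against the other 7 instead of the deposited scale, miR-484 had the most negative difference between metformin and control. Its log2 difference relative to the mean of the others was -0.51 (95% interval -1.0 to -0.02, not adjusted for the number of probes). By limma the adjusted p was 0.986 and the unadjusted one 0.043. In that fit, with other probes scaled on the mean of all 8, 32 of the 1038 probes had an unadjusted p under 0.05. The intervals of the other 7 all included 0, from miR-186-5p at -0.27 to miR-191-5p at 0.35. The values of the groups did not overlap for miR-484 and miR-186-5p on that scale, against 8.19% of all probes scaled on the references, and overlapped for miR-423-3p.

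**Figure D5:**
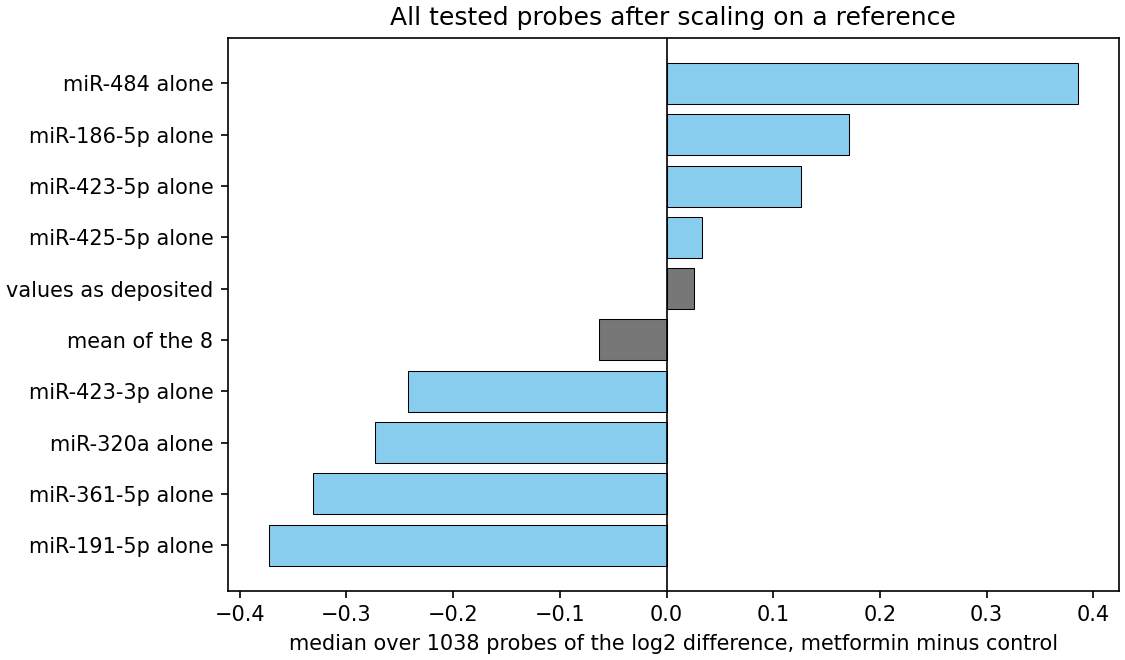
Median over the 1038 tested probes of the log2 difference, metformin minus control, as deposited or after scaling each array on the mean of the 8 references (grey) or on 1 reference alone (blue). The median runs from -0.37 with miR-191-5p to 0.39 with miR-484.

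Among the 260 brightest, other probes had an SD as small as that of the steadiest references. The files give them only by accession. The smallest SD over the 6 arrays outside the references was 0.07 for MIMAT0003326 (221.0 to 250.6) and for MIMAT0000682 (35.1 to 40.7). It was 0.08 for MIMAT0005938 and 0.09 for MIMAT0000087 and MIMAT0003150. The probes whose profile over the 6 arrays was most like the mean log2 profile of the 8 were MIMAT0018352 (Pearson r = 0.98), MIMAT0004946 (0.89), MIMAT0003239 (0.87), MIMAT0004945 (0.85) and MIMAT0004693 (0.84). Over all 253 bright probes compared, r ran from -0.87 to 0.98 with a median of 0.32, and with 6 points from the same arrays these values are a description only.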

How the data were processed

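Total RNA was labelled with Hy5 and hybridised to microRNA arrays, per the labels' protocols. The deposited table holds processed intensities on a linear scale, as judged from values as large as 11352.5. All values were above 0 and the array medians were nearly equal. The scanner, the background correction and the scaling are not stated in the labels, so no probe could be judged against background and the number of arrays limits the precision. No column was left out.

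Log2 intensities were taken without a pseudocount, and the test covered the 1038 probes measured on every array. The comparison of metformin and control used lmFit and eBayes of limma 3.58.1 (R 4.3.3; two-sided, no covariates), with Benjamini-Hochberg adjustment over all probes tested and a threshold of 0.05. The procedure was tested on simulated data with independent noise in each value, so effects shared by an array were not covered. Alternatives were other scalings (quantile, array median, 75th percentile, the references themselves), filters on dim probes, log2(value + 1), other variance models, blocks for replicate number and deposit order, and leaving out each array. Figures were drawn with matplotlib 3.10.9.

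The members, lists and alternatives were chosen with earlier results of these data known. The rule named all 8 members, the 5 bright probes most like their mean profile and the 5 steadiest bright probes. It also listed partner arms, miR-320 relatives, other references and cell type markers, which were not analysed here because the files do not pair other accessions with names, so the labelled cell line was not checked against markers. Shared replicate numbers were not treated as pairs, because the labels do not say that they pair samples. Deviations from the group means of same-numbered arrays correlated with r = 0.01, -0.27 and -0.02 for numbers 1, 2 and 3 over all tested probes. Over the 260 brightest, r was 0.24, -0.26 and 0.44. Deviations within a group are tied to one another, so these values do not decide whether the numbers mark pairs.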

Additional observations from a re-analysis of the deposited data

How the results depend on the processing

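Over all probes, 0 passed the threshold under all 26 alternatives by limma, and the count at an unadjusted p under 0.05 ran from 1 (the 260 brightest probes alone) to 161 (scaled on miR-484), against 28 as deposited. It was 41 after quantile normalization, 10 of the 519 brighter probes, 18 with trend and robust settings, 50 with a block for the first and last 3 arrays deposited, 63 scaled on miR-191-5p, 70 on miR-423-3p and 47 on miR-361-5p or miR-186-5p. Without 1 array it ran from 23 to 44, with 44 without control replicate 2. With the replicate block it was 24, and the block changed no call. No reference passed under any alternative. The sign of miR-425-5p turned after centring on the array median (0.013) or its 75th percentile (0.011), and its difference ran from -0.056 to 0.054 over the fits without 1 array, with -0.18 after quantile normalization and -0.11 relative to the other 7. That of miR-423-5p ran from -0.29 to 0.032 and that of miR-361-5p from 0.16 to 0.60 when 1 array was left out. Quantile normalization also gave 0.19 for miR-191-5p, 0.15 for miR-423-3p, 0.07 for miR-320a and -0.24 for miR-186-5p. The SD of miR-186-5p over the arrays, 0.10, was 0.20 after quantile normalization and 0.18 relative to the other 7. The mean level of the 8 differed by -0.029 after quantile normalization. Scaling means without miR-484 or miR-186-5p gave 1 call each. The causes were not tested. miR-361-5p is absent from the sets of 519 and 260 brightest probes. Scaling on single references and the fit with each probe's own spread were chosen after seeing the data. Precision is limited by 3 arrays per group.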

Other observations

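Control replicate 1 holds 201 values written with more than 1 decimal, and 0 of the 8 reference values are among them. The table has 224 null cells, and 0 of them fall on a reference probe.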
